A study of Mus musculus with 10 samples.

Results

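Keratins of luminal and basal type were followed through invasive lobular carcinoma (ILC) tumor cells and mammary fibroblasts grown in gels. The 9 genes were chosen by symbol, Krt7, Krt8, Krt18 and Krt19 as luminal or simple keratins, Krt5, Krt14, Krt15 and Krt17 as basal keratins, and Krt6a as a keratin of stressed or activated keratinocytes. All 9 were found among the 55486 genes of the count table, which holds 54 keratin genes in all.

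Bulk RNA sequencing gave 10 libraries from 5 gels of collagen and basement membrane extract, cultured for 7 days and then sorted by color. Normal fibroblasts (NFs) were taken at 8 weeks of age from the mammary glands of mTmG mice, whose cells are red until Cre recombinase turns them green. Before culture, pooled mice were sorted for cells negative for EpCAM, CD49f, CD45 and CD31 and split by CD26. CD26+ NFs alone received a Cre adenovirus, so virus and subset cannot be told apart, and red CD26- NFs were mixed with green CD26+ NFs. Tumor cells were taken as neither red nor green, and came from lines 13-MCB-17 and 10-SJK-221 of WapCre mice with floxed alleles, among them Cdh1. The Wap promoter drives Cre in mammary epithelium. Gel 1 held NFs without tumor cells and gave 1 CD26- and 1 CD26+ library. Gel 2 (13-MCB-17) and gel 3 (10-SJK-221) held tumor cells alone and gave 1 library each. Gel 4 (13-MCB-17) and gel 5 (10-SJK-221) held tumor cells with both NF subsets and gave 3 libraries each. Each line is 1 line and NFs alone are 1 gel, so p-values measure the spread between these gels, which may be technical.

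Libraries held 14142334 to 18408940 counts, so that 3 counts, taken as the most that an observed 0 allows, correspond to 0.163 to 0.212 CPM, the count scaled to a library total of 1000000. Such limits and the intervals below cover counting error only. Summed over a list of 20 epithelial genes, tumor cells alone had 2567 and 2590 CPM, co-cultured tumor cells 1737 and 1800 CPM, NFs alone 3.66 and 7.65 CPM, and co-cultured NFs 37.8 to 89.1 CPM. Summed over 10 fibroblast genes, NFs had 25487 to 77567 CPM, tumor cells alone 39.3 and 71.9 CPM, and co-cultured tumor cells 129 and 209 CPM. Cdh1, the floxed gene that encodes E-cadherin, had 239 CPM (13-MCB-17) and 269 CPM (10-SJK-221) in tumor cells alone, against 144 and 139.9 CPM in co-culture. Gene-level counts hold no record of single exons and cannot serve as a check of the deletion.

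Keratins are the intermediate filaments of epithelial cells and assemble only as pairs of a type II chain (here Krt5, Krt6a, Krt7 and Krt8) and a type I chain (Krt14, Krt15, Krt17, Krt18 and Krt19). In the mammary gland, Krt8 and Krt18 form the main pair of luminal cells, with Krt7 and Krt19 beside them, whereas Krt5 pairs with Krt14 in basal, myoepithelial cells. Fibroblasts build their filaments mainly from vimentin, and keratins are widely used to tell carcinoma cells from stroma.

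The type I genes lie together on mouse chromosome 11 and the type II genes on chromosome 15, where Krt18 is the type I gene that sits at the end of the type II cluster (GRCm38). Krt8 (ENSMUSG00000049382, 101996698 to 102004482, minus strand) and Krt18 (ENSMUSG00000023043, 102028180 to 102032027, plus strand) are separated by 23697 bases on chromosome 15. Krt7 (ENSMUSG00000023039, 101411043 to 101430313), Krt6a (ENSMUSG00000058354, 101689910 to 101694307) and Krt5 (ENSMUSG00000061527, 101707070 to 101712898) complete the chromosome 15 group. Chromosome 11 holds Krt15 (ENSMUSG00000054146, 100131758 to 100135928), Krt19 (ENSMUSG00000020911, 100140810 to 100148665), Krt14 (ENSMUSG00000045545, 100203162 to 100207548) and Krt17 (ENSMUSG00000035557, 100256217 to 100261029).

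RefSeq promoter windows (GRCm38.p6, 250 bases before to 50 after a start) were available for 5 of the 9 genes, Krt5, Krt7, Krt8, Krt14 and Krt18. Shown here are the upstream stretches of Krt18, the keratin with the highest level per length in tumor cells, at chr15:102027966-102028179 on the plus strand, and of Krt5, the keratin with the largest fall in co-culture among the 8 tested, at chr15:101712899-101713155 on the minus strand. Both are written 5′ to 3′ and stop where the annotated gene begins, and capitals mark the E-box letters CACCTG on either strand.
Krt18: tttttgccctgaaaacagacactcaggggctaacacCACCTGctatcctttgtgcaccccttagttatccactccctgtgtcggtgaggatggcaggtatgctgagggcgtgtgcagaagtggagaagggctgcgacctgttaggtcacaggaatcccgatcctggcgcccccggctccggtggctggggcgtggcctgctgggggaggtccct
Krt5: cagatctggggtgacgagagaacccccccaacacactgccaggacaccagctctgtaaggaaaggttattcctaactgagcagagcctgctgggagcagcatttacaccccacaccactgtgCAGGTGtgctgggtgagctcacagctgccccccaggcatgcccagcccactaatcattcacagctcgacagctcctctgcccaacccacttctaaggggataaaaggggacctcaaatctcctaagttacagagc

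Over both strands, CACCTG occurred in 4 of the 5 keratin windows (Krt5, Krt7, Krt8 and Krt18) and in 20.03% of 27025 promoter windows of the same length. TATAAA was found in the Krt8 window, where matches on both strands overlapped, and in 14.2% of all windows. GGGCGG had 4 matches in the Krt7 window and occurred in 35.9% of all windows. No match to TGANTCA (7.93% of all windows) or CCAAT (37.9%) was found in the 5 windows. The Krt7 and Krt14 windows lie wholly inside the annotated gene, and the Krt8 window partly, so not all of these letters lie upstream of the annotated start. All are letter matches, not sites shown to be bound. The Krt18 and Krt5 windows, of which one gene stayed high and the other fell in co-culture, both held CACCTG.

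First, the levels in tumor cells were compared. The luminal pair was high in every tumor library. Krt18 had 981 and 1392 CPM in 13-MCB-17 and 10-SJK-221 cells grown alone, and 1172 and 1468 CPM in the same lines in co-culture. Krt8 followed the same order of libraries, with 789, 1301, 1001 and 1438 CPM. The luminal keratin Krt7 had 825, 964, 883 and 796 CPM, and Krt19, a type I keratin without a long tail domain, had 309, 664, 460.0 and 507 CPM, so that for both the cultures overlapped.

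The basal keratins did not exceed 51.0 CPM. Krt14 had 34.1, 51.0, 32.7 and 49.6 CPM in the same order of libraries, so that it was higher in both 10-SJK-221 libraries and the cultures overlapped. Krt15, a keratin of basal progenitors in skin, had 5.32, 19.9, 3.62 and 5.53 CPM and was highest in 10-SJK-221 cells alone. Krt17, which is induced in injured epithelium, had 4.35, 5.54, 2.09 and 2.57 CPM. Krt5 had 5.00 and 6.17 CPM alone, but 0.339 and 0.228 CPM in co-culture, which are 6 and 4 counts. For Krt5 and Krt17, both libraries grown alone were above both in co-culture. Krt6a was read in tumor cells alone only, with 39 counts in 13-MCB-17 (2.12 CPM) and 8 counts in 10-SJK-221 (0.509 CPM), and had 0 counts in all other libraries.

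**Figure D1:**
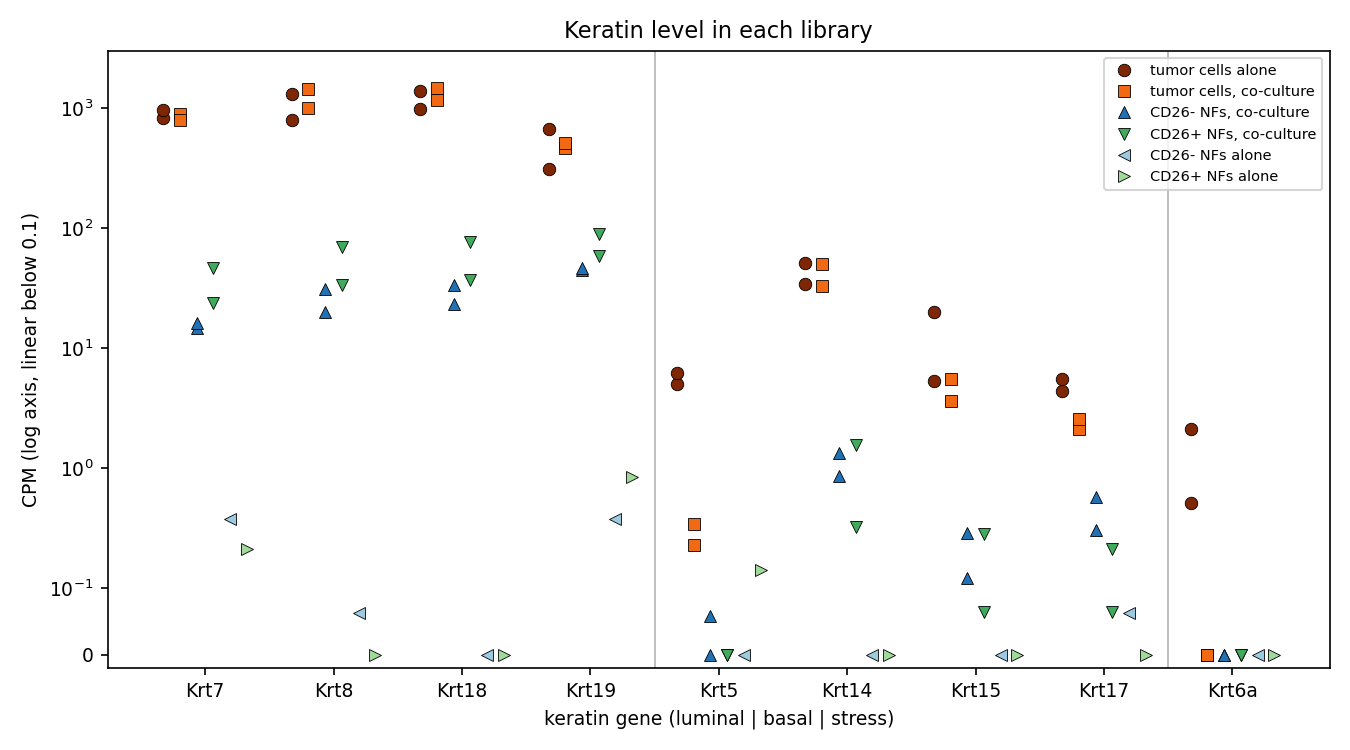
Level of each of the 9 keratins in the 10 libraries, in CPM on an axis that is logarithmic above 0.1 and linear below, with 1 point per library and symbols for the 6 groups. The 4 luminal keratins lie between 309 and 1468 CPM in tumor cells, between 14.7 and 89.8 CPM in co-cultured NFs, and under 1 CPM in NFs alone.

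Per kb of annotated exon, the order of the genes was the same in all 4 tumor libraries, namely Krt18, Krt8, Krt19, Krt7, Krt14, Krt15, Krt17, Krt5, with Krt6a last or at 0. On this scale Krt18 made up 44.6% to 48.8% of the summed level of the 9 genes, Krt8 28.8% to 33.8%, Krt19 11.9% to 16.5% and Krt7 5.20% to 8.38%. The 4 luminal keratins together made up 97.8% to 98.7%, and the 4 basal keratins 1.29% to 2.14%, of which most was Krt14 (1.08% to 1.39%). Type II chains summed to 37.0% to 39.0% and type I chains to 61.0% to 63.0%. Krt8 stood at 0.591, 0.686, 0.627 and 0.719 of the Krt18 level, a narrow range next to that of Krt5 over Krt14, which was 0.117 and 0.0968 alone and 0.00831 and 0.00368 in co-culture. Thus the basal pair was unequal in all 4 libraries and more so in co-culture. The annotated exons of Krt7 span 7049 bases over several transcripts, against 1437 to 2418 bases for the other members, so its level per kb depends most on which transcripts are taken.

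Some member counts share sequence with other genes. Of the 54-base windows of Krt8 transcripts, 26.1% also occur in the pseudogene Krt8-ps, which had 8 to 17 counts in tumor cells against 14532 to 25210 for Krt8. For Krt6a, 44.7% of windows are shared, mainly with Krt6b, which had at most 1 count in any library. Krt14 shares 11.9% of windows with Krt16 and Krt17, and Krt5 shares 8.07% with Krt6a, Gm5478 and Krt6b. Exons of Krt5, Krt6a, Krt7 and Krt8 overlap genes on the other strand over 5.87%, 24.8%, 1.09% and 5.16% of their length. The overlapping genes of the first 2 had 0 counts, and those of Krt7 and Krt8 had at most 58 counts in a library.

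Next, co-cultured tumor cells were compared with tumor cells alone, with the line as a term. This fit leaves 1 residual degree of freedom per gene and borrows the spread across genes. Each line and culture is 1 library, so the residual is the difference in culture change between the lines, not a spread of replicates. Of the 4 basal keratins, Krt5, Krt15 and Krt17 fell and Krt14 did not pass the test, nor did the 4 luminal keratins. Krt5 fell by 4.28 on the log2 scale (SE 0.411, adjusted p = 0.000354 by edgeR's quasi-likelihood test), Krt15 by 1.29 (SE 0.299, adjusted p = 0.0164) and Krt17 by 1.11 (SE 0.272, adjusted p = 0.0216). With 6 and 4 counts in co-culture, Krt5 passed the filter on low counts through the libraries grown alone, so that it could be tested only as a gene that was lower in co-culture. In mean CPM, Krt5 was 19.7-fold higher alone than in co-culture, Krt15 2.75-fold and Krt17 2.12-fold. The fourth basal keratin, Krt14, had a log2 fold change of −0.07 (SE 0.109, adjusted p = 0.679). Of the 8 keratins tested, 3 were lower and 0 higher, where 11.5% of the 13197 genes tested were lower and 10.8% higher in co-culture.

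The luminal keratins had log2 fold changes of 0.22 (Krt8, SE 0.128, adjusted p = 0.270), 0.14 (Krt18, SE 0.129, adjusted p = 0.488), 0.07 (Krt19, SE 0.199, adjusted p = 0.856) and −0.11 (Krt7, SE 0.135, adjusted p = 0.601). A p that misses the threshold does not show equal levels. The median log2 fold change was 0.10 over the 4 luminal keratins, −1.20 over the 4 basal keratins and 0.01 over all genes tested. Krt6a did not pass the filter on low counts. Its mean in tumor cells alone was at least 7.71-fold higher than the limit set by 0 counts in co-culture (at least 12.5-fold in 13-MCB-17 and 2.97-fold in 10-SJK-221), and without the filter it was among 4 keratins called lower (Krt5, Krt6a, Krt15 and Krt17). The fall of Krt17 was not called by DESeq2 (log2 fold change −1.11, adjusted p = 0.236). Without the line as a term no keratin passed, at log2 fold changes of −4.28 for Krt5 (adjusted p = 0.0774), −1.46 for Krt15 (adjusted p = 0.366) and −1.11 for Krt17 (adjusted p = 0.208).

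Krt15 fell unequally in the 2 lines, by 0.56 on the log2 scale in 13-MCB-17 and by 1.84 in 10-SJK-221, while Krt17 fell by 1.05 and 1.11. Krt5 was 14.7-fold higher alone than in co-culture in 13-MCB-17 and 27.0-fold in 10-SJK-221. Leaving out a tumor library leaves no residual degrees of freedom, so these values carry no test, and the log2 fold change of Krt15 then ranged from −1.86 to −0.60 and that of Krt5 from −4.73 to −3.90.

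The lines themselves were compared in the same fit, with culture as a term and the same limit on its residual. Krt8 was higher in 10-SJK-221 than in 13-MCB-17 cells (log2 fold change 0.55, SE 0.129, adjusted p = 0.0257), as were Krt14 (0.52, SE 0.109, adjusted p = 0.0162) and Krt15 (1.25, SE 0.299, adjusted p = 0.0271). Both 10-SJK-221 libraries exceeded both 13-MCB-17 libraries for Krt8 and Krt14, but for Krt15 the groups lay close, with 5.53 CPM in co-cultured 10-SJK-221 and 5.32 CPM in 13-MCB-17 cells alone. Krt18 (0.34, SE 0.129, adjusted p = 0.123) and Krt19 (0.54, SE 0.200, adjusted p = 0.111) did not pass, nor did Krt17 (0.25), Krt5 (0.08) or Krt7 (−0.04). Of 8 keratins tested, 3 were higher and 0 lower, where 5.93% of all genes tested were higher and 8.54% lower in 10-SJK-221. The line difference of Krt15 was 0.55 and 0.56 on the log2 scale when the 13-MCB-17 or the 10-SJK-221 library grown alone was left out, and 1.81 when either co-cultured library was, with no test. By DESeq2 only Krt8 remained, and Krt14 and Krt15 had adjusted p-values of 0.139 and 0.0641. Without culture as a term no keratin passed by edgeR, with adjusted p-values of 0.453 for Krt8, 0.342 for Krt14 and 0.610 for Krt15.

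**Figure D2:**
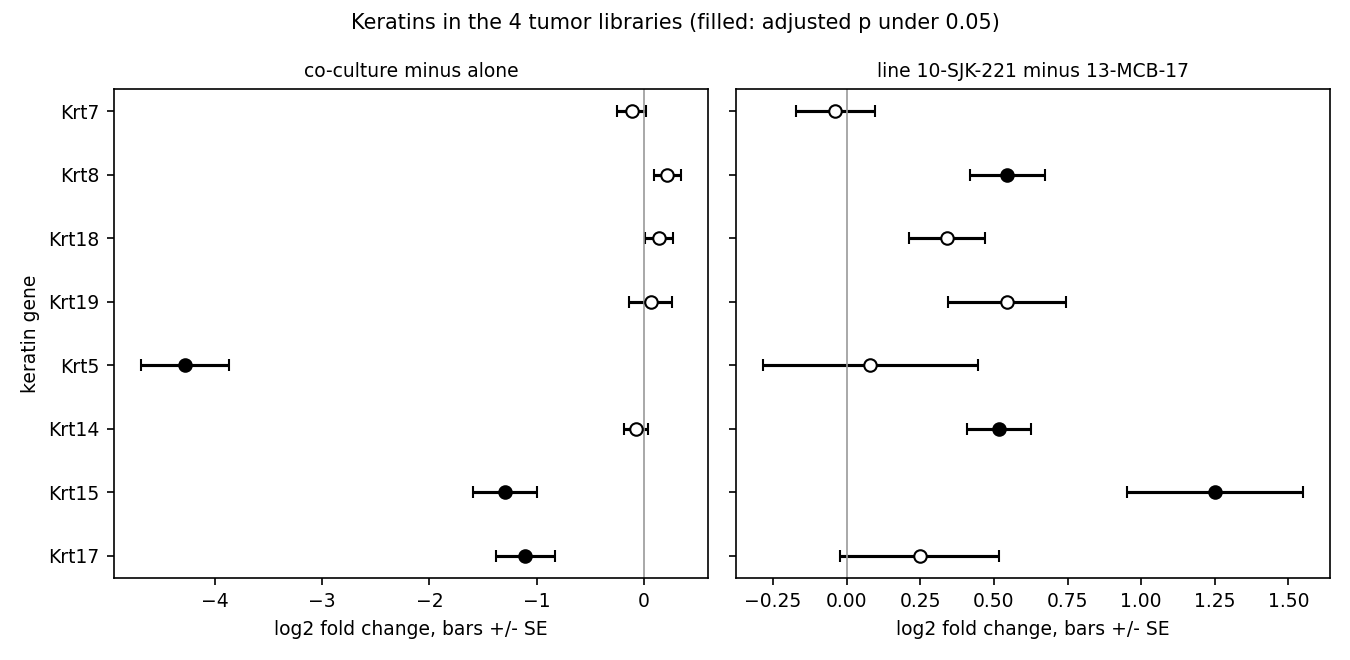
Log2 fold change of the 8 tested keratins in tumor cells, with bars of 1 SE either way and filled points for an adjusted p under 0.05. In the left panel (co-culture against alone) Krt5, Krt15 and Krt17 are filled and below 0, and in the right panel (10-SJK-221 against 13-MCB-17) Krt8, Krt14 and Krt15 are filled and above 0. The axes of the panels differ in range.

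Among the 45 other keratin genes, 13 reached 1 CPM in a library and 15 had no count in any. Krt16, a keratin induced with Krt6 in activated skin, had 175 CPM in 13-MCB-17 and 103.8 CPM in 10-SJK-221 cells alone, against 10.0 and 14.7 CPM in co-culture (log2 fold change −3.49, SE 0.267, adjusted p = 0.00013). Both libraries grown alone were above both in co-culture. Krt78 had 22.2 and 43.8 CPM alone and 15.8 and 28.4 CPM in co-culture (−0.58, SE 0.133, adjusted p = 0.0157). Krt27, Krt4 and Krt9, all at most 4.90 CPM, also fell, by 3.63, 1.79 and 2.14 on the log2 scale, and Krt27 and Krt9, at most 0.228 CPM in co-culture, passed the filter through the libraries grown alone. Krt80 had 116, 91.3, 79.3 and 100.1 CPM in the 4 tumor libraries and did not pass (−0.23, SE 0.157). Of 10 other keratins tested, 5 fell and 0 rose.

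Keratin filaments are anchored at desmosomes and hemidesmosomes, and of 15 such partner genes 6 fell in co-cultured tumor cells and 0 rose, where 11.5% of all genes tested were lower and 10.8% higher, the shares that also stand behind the counts of other keratins, regulators and list genes in tumor cells. The hemidesmosomal collagen Col17a1 fell most, from 45.5 and 41.9 CPM to 4.24 and 9.70 CPM (log2 fold change −2.74, SE 0.278, adjusted p = 0.000437). Periplakin (Ppl), which links filaments to the cornified envelope and the desmosome, fell by 2.32 on the log2 scale (SE 0.125, adjusted p = 2.67e-05). Desmoplakin (Dsp), which ties keratins to desmosomes, went from 717 and 847 CPM to 364 and 393 CPM, a fall by 1.07 (SE 0.117, adjusted p = 0.000595).

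Of 11 regulators known for keratin genes, 8 were tested, 4 fell and 0 rose. Grhl3, Elf3 and Grhl2 were the largest, although Grhl3 had at most 1.68 CPM and 0 counts in co-culture, and so was tested through the libraries grown alone. Elf3 fell by 1.07 and Grhl2 by 0.96, and the fourth was Tfap2a, which fell by 0.64. Trp63, the p63 gene that marks basal epithelium, had 23.1 and 41.04 CPM alone and 26.0 and 30.7 CPM in co-culture, and was not among them. Over the epithelial list, 16 of 20 genes fell and 0 rose, with a median log2 fold change of −0.85, while none of the 4 luminal keratins, which are not on that list, passed the test. Of the fibroblast list, 6 of 7 tested were higher, but Col3a1, Dcn, Pdgfrb and Postn, at most 0.573 CPM in tumor cells alone, passed the filter through the co-cultured libraries. The part of fibroblast RNA in these values was not tested.

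Markers of mammary subtypes were set beside the keratins. Of 7 myoepithelial markers, which sum to 26.7 to 50.5 CPM in tumor cells, Trp63 made up most, while smooth muscle actin (Acta2) was at most 0.396 CPM and Oxtr at 0. Of 9 luminal mammary markers, Elf5, Kit and Pgr were at 0 in all 4 tumor libraries and the estrogen receptor gene Esr1 had 2 counts in 1 of them at most. Other members of that list were read in tumor cells. Areg, which encodes the growth factor amphiregulin, had 186 to 383 CPM, Foxa1 6.16 to 26.2 CPM, Gata3 4.45 to 6.50 CPM and Cited1 0 to 3.94 CPM, and the 9 genes summed to 202 to 408 CPM.

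Keratins in fibroblasts were examined next. In NFs alone the members were at or near 0. Krt18, Krt14, Krt15 and Krt6a had 0 counts in both libraries, Krt8 and Krt17 had 1 and 0 counts, and Krt5 had 0 and 2 counts in CD26- and CD26+ NFs. Krt7 had 6 and 3 counts, and Krt19 had 6 and 12 counts (0.373 and 0.842 CPM). In bulk libraries, more keratin-positive cells and more RNA per cell cannot be told apart.

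In co-culture, Krt18 had 23.0 CPM (gel 4) and 33.1 CPM (gel 5) in the CD26- subset, and 36.6 CPM and 76.9 CPM in the CD26+ subset. For Krt8 the values were 19.8 and 30.8 CPM in CD26- and 33.7 and 69.4 CPM in CD26+ cells. Krt7 gave 14.7 and 16.3 CPM in the former and 23.6 and 46.8 CPM in the latter. Krt19 gave 45.02 and 46.6 CPM, and 58.6 and 89.8 CPM. All 4 co-cultured libraries exceeded both libraries of NFs alone for each luminal keratin, and the CD26+ NFs of gel 5 were highest throughout.

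Against NFs alone, mean levels were at least 214-fold higher for Krt18 and at least 194-fold higher for Krt8, set against the limit of 3 counts per library. Means of Krt19 and Krt7 were 98.8-fold and 86.9-fold higher, on the few counts given above. Krt14 had 14 counts (gel 4) and 23 counts (gel 5) in the CD26- subset and 5 and 22 counts in the CD26+ subset, at least 5.10-fold higher. Adjusted p-values were 1.21e-05 for Krt18, 7.58e-06 for Krt8, 5.28e-07 for Krt19, 1.12e-05 for Krt7 and 0.00625 for Krt14. In this comparison 25.9% of the 15013 genes tested were higher and 22.9% lower in co-culture. The 5 keratins that passed the filter on low counts passed it through the co-cultured libraries, so that their being higher is no separate finding. Krt5, Krt6a, Krt15 and Krt17 did not pass the filter and had at most 10 counts in a co-cultured NF library. Without gel 5 Krt14 could not be tested, whereas the 4 luminal keratins remained called.

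The level in co-cultured NFs was then given as a percent of the CPM in tumor cells of the same gel. Krt18 stood at 1.96% in CD26- NFs of gel 4 (exact Clopper-Pearson 95% interval 1.77 to 2.17), 2.26% in CD26- NFs of gel 5 (2.08 to 2.45), 3.12% in CD26+ NFs of gel 4 (2.87 to 3.39) and 5.24% in CD26+ NFs of gel 5 (4.93 to 5.57). Krt8 gave 1.98%, 2.14%, 3.36% and 4.82% in the same order, and Krt7 gave 1.66%, 2.04%, 2.68% and 5.88%. Epcam, the epithelial surface protein that the first sort gated out, gave 1.91%, 1.99%, 2.51% and 4.45%, and Cdh1 gave 1.69%, 2.55%, 3.09% and 3.74%. Medians over the epithelial list were 2.04%, 2.10%, 3.87% and 5.12%. The percentages of Krt8, Krt18 and Krt7 were ordered over the libraries like those of Epcam, Cdh1 and the list median. Single epithelial genes departed from this order, such as Esrp2, at 6.13%, 4.73%, 3.82% and 2.71%, and Cldn7, at 2.24%, 0.827%, 2.08% and 2.79%. Unlike Krt8, Krt18 and Epcam, Esrp2 was not near 0 in NFs alone, at 2.17 CPM (CD26-) and 1.12 CPM (CD26+). Its level in co-cultured NFs was lower, at 0.495 to 1.03 CPM.

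Krt19 stood apart from them. It had 9.79% in CD26- NFs of gel 4 (interval 9.07 to 10.6), 9.19% in CD26- NFs of gel 5 (8.54 to 9.87), 12.7% in CD26+ NFs of gel 4 (11.9 to 13.7) and 17.7% in CD26+ NFs of gel 5 (16.7 to 18.8). These are 4.98, 4.07, 4.08 and 3.38 times the percent of Krt18 in the same library, and no counting intervals overlapped. The percent of Krt19 exceeded that of Krt18 in 4 of 4 libraries, a description only, since an exact two-sided sign-flip permutation test cannot go below p = 0.125 with 4 libraries. At most 1 of the 20 epithelial genes had a higher percent than Krt19 in any of the 4 libraries.

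Over 74 reference genes with at least 20 CPM in every tumor library and at most 3 counts in NFs alone, the median percent was 2.16 and 2.53 in the CD26- and 3.35 and 5.02 in the CD26+ subset (gels 4 and 5). Of these genes, 4, 2, 6 and 3 had a higher percent than Krt19 in the 4 libraries. Krt19 itself is not in this set, since it had 6 and 12 counts in NFs alone, and neither is Krt7. With the level of the same subset in NFs alone subtracted, the mean percent of Krt19 was 12.2%, against 12.4% ± 3.90 (SD, n = 4) as measured and 3.15% ± 1.48 (SD, n = 4) for Krt18. Libraries of a gel share their tumor library, so the 4 values are not independent. How far tumor cells or their RNA in the NF gates contribute was not tested.

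**Figure D3:**
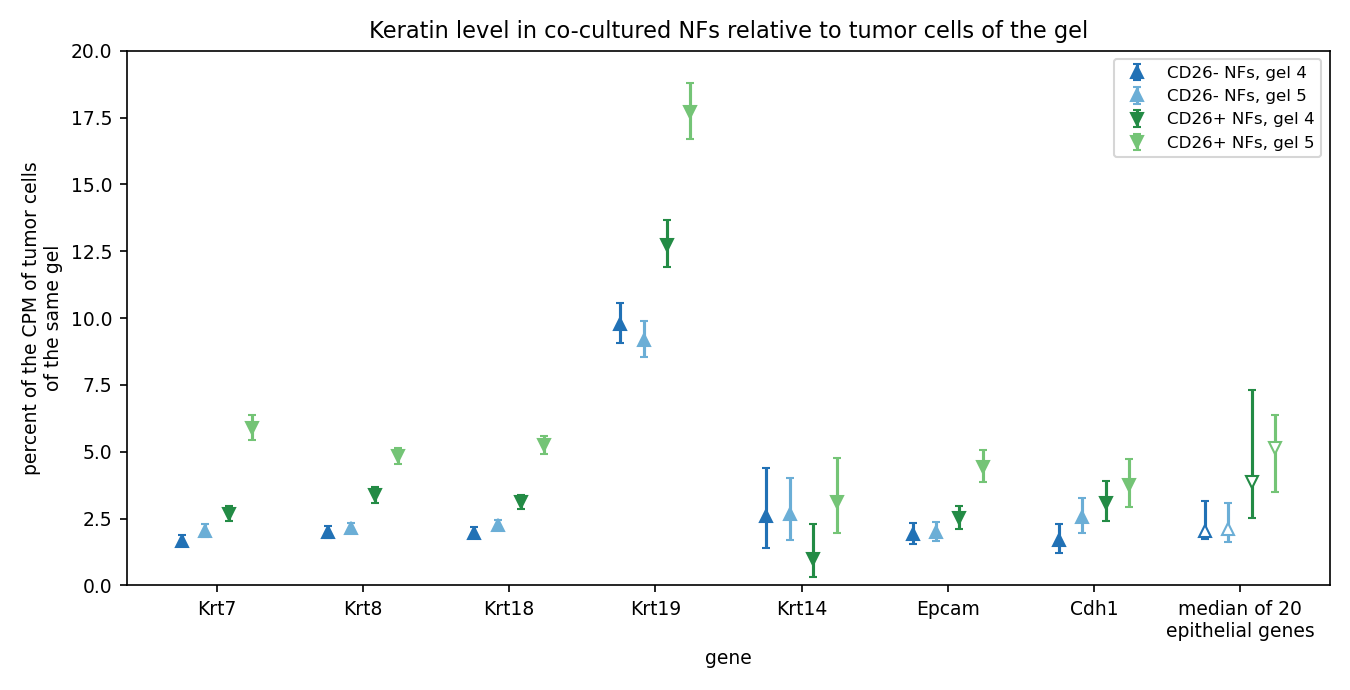
Level in co-cultured NFs as a percent of the CPM of tumor cells of the same gel, for 5 keratins, Epcam and Cdh1 (filled, with exact 95% counting intervals) and as the median of the 20-gene epithelial list (open, bars from the lower to the upper quartile). Krt19 lies between 9.19% and 17.7%, above the other genes shown, whose values lie between 0.983% and 5.88%.

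The basal keratins had few counts in NFs. Krt14 stood at 2.60% and 2.67% in CD26- and 0.983% and 3.13% in CD26+ NFs of gels 4 and 5, with intervals that reach from 0.318% to 4.78% over the 4 libraries. Krt17 gave 14.5% and 22.4% in CD26- but 3.07% and 8.26% in CD26+ NFs, on 5, 10, 1 and 3 counts, so that intervals ran from 0.0757% to 45.1%. Krt15 gave 3.35% and 5.20%, and 1.77% and 5.11%, on at most 5 counts. Krt5, at 6 and 4 counts in the tumor cells themselves, allows no reading.

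Within NFs the make-up of the keratins differed from that of tumor cells. Per kb of exon, Krt19 made up 45.6% and 37.2% of the 9 genes in CD26- NFs of gels 4 and 5 and 40.6% and 33.3% in CD26+ NFs, against 11.9% to 16.5% in tumor cells. Krt8 stood at 0.632 to 0.682 of Krt18, within the range of the tumor libraries. Krt19 stood at 0.904 to 1.51 of Krt18, above the 0.244 to 0.369 in tumor cells, without overlap. Basal keratins made up 0.334% to 1.94%.

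**Figure D4:**
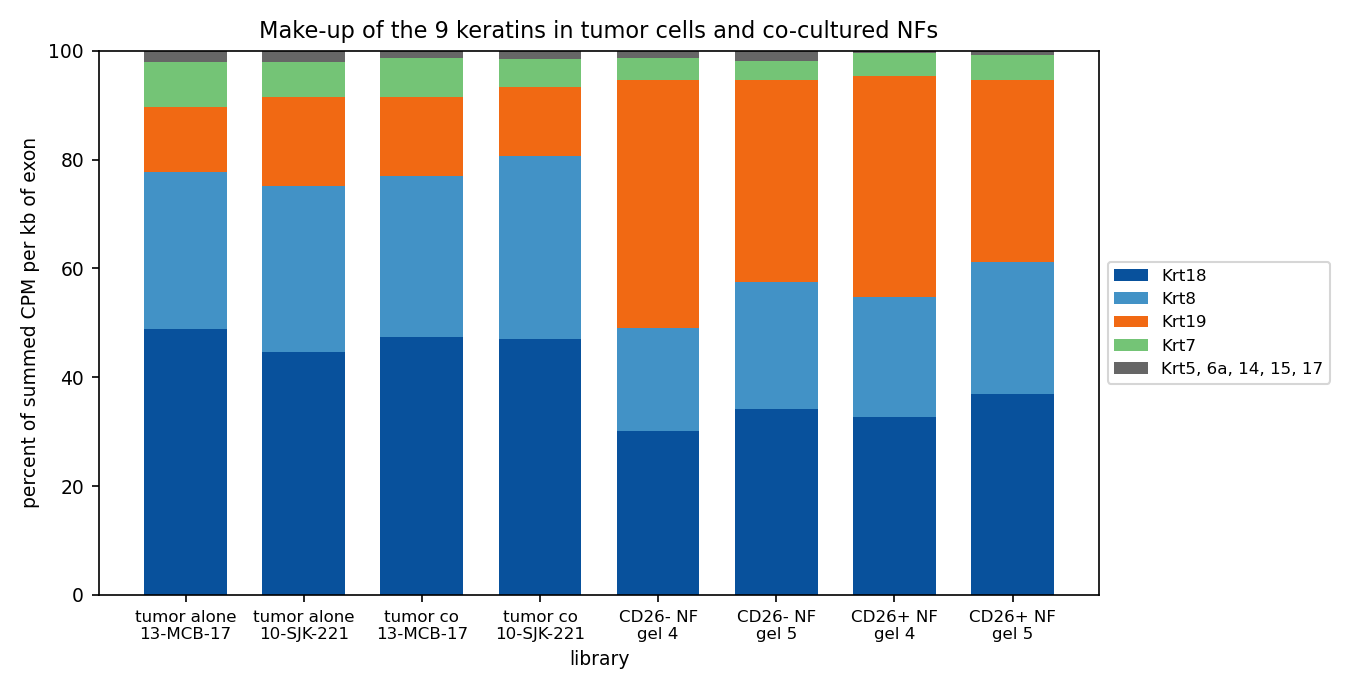
Share of each luminal keratin, and of the 5 other members together, in the summed level per kb of exon of the 9 keratins, for the 4 tumor libraries and the 4 co-cultured NF libraries (bars from 0 to 100%). Krt19 takes 33.3% to 45.6% in NFs and 11.9% to 16.5% in tumor cells.

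Finally, CD26+ NFs were compared with CD26- NFs within co-culture. Krt7 was higher in CD26+ NFs (log2 fold change 1.01, SE 0.278, adjusted p = 0.0483), and higher in both gels, by 1.61-fold in gel 4 and 2.87-fold in gel 5. Krt8 (0.85, SE 0.304, adjusted p = 0.130), Krt18 (0.84, SE 0.298, adjusted p = 0.125) and Krt19 (0.52, SE 0.208, adjusted p = 0.173) were also higher in CD26+ NFs of both gels but did not pass. Krt14 had −0.40 (SE 0.738). Of 5 keratins tested 1 was higher, where 3.48% of the 16231 genes tested were higher and 2.53% lower.

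The NF subsets of a gel were grown together, so the gel pairs them. With the gel as a replicate block, Krt7 (0.95, adjusted p = 4.59e-06), Krt8 (0.81, adjusted p = 7.61e-05), Krt18 (0.78, adjusted p = 0.000127) and Krt19 (0.50, adjusted p = 0.0256) all passed, where 8.71% of 14410 genes tested were higher. That fit leaves 1 residual degree of freedom per gene and borrows the spread across genes. Without the block, the call of Krt7 was lost by DESeq2 (adjusted p = 0.0573), without the filter on low counts (adjusted p = 0.138) and whenever 1 of the 4 co-cultured NF libraries was left out, at log2 fold changes from 0.39 to 1.45. Without the CD26+ library of gel 5 the differences of Krt8, Krt18 and Krt19 were 0.18, 0.16 and 0.14. The median percent of the epithelial list was also higher in the CD26+ than in the CD26- subset of each gel, as given above, and 2 of 16 epithelial genes tested (Cldn3 and Spint2) were called higher in CD26+ cells. The summed level of the fibroblast list was 25487 and 31891 CPM in the CD26+ and 42837 and 47932 CPM in the CD26- libraries. The part of these differences in the keratin values was not tested.

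Some other keratins behaved otherwise in NFs, but not all. Krt78 stood at 2.84% to 7.22% of the tumor level of the gel, Krt42 at 1.43% to 6.55% and Krt16 at 0.642% to 4.34%. These ranges, on at most 29 counts in an NF library, overlap those of Krt8 and Krt18. Krt20, a keratin of intestinal and urothelial cells, had 5.33 CPM (gel 4) and 3.61 CPM (gel 5) in the co-cultured CD26+ subset, 1.27 and 0.403 CPM in the CD26- subset, and at most 0.570 CPM in tumor cells. Krt23, another type I keratin, had 3.53 and 3.54 CPM in the CD26+ subset, 0.667 and 0.345 CPM in the CD26- subset, and at most 0.228 CPM in tumor cells. Both exceeded the tumor level of their gel in CD26+ NFs and were higher in CD26+ than in CD26- NFs (Krt20 2.25, SE 0.515, adjusted p = 0.0199, and Krt23 2.62, SE 0.528, adjusted p = 0.00977). Neither call held when the CD26+ library of gel 4 was left out. Krt80 went from 1.18 and 3.02 CPM without tumor cells to between 7.33 and 11.9 CPM with them, 7.70% to 13.3% of the tumor level. Krt10, a keratin of differentiated epidermis, had 1.68 and 1.90 CPM in NFs alone and 0 counts in all 4 tumor libraries.

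Of the partner genes, 14 were tested in NFs, 7 were higher and 2 lower in co-culture than alone, where 25.9% of all genes tested were higher and 22.9% lower. Plakophilin 1 (Pkp1), a desmosomal plaque protein, had 0 counts in NFs alone but 13.9 to 19.2 CPM after co-culture. Dsp had 0 and 0.491 CPM alone and 22.2 to 41.2 CPM in co-culture. Itga6, which encodes the CD49f chain used in the first sort, had 2.48 and 2.04 CPM alone and 41.9 to 66.0 CPM in co-culture (4.66, SE 0.274). Regulators were higher for 7 of 9 tested and lower for 1. The 3 with the largest fold changes were Elf3, which had 0 counts in NFs without tumor cells and 1.70 to 2.69 CPM with them, Grhl2, with 0 counts and 0.667 to 2.62 CPM, and Tfap2c. The co-cultured CD26+ subset had 4.30 and 4.88 CPM of Tfap2c, the CD26- subset 0.242 and 0.345 CPM, and tumor cells at most 0.0566 CPM. Of the epithelial list, 11 of 14 tested were higher and 0 lower. Of the 20 listed epithelial genes, 10 were at 0 in NFs alone, so that those of them that were tested, like Pkp1, Dsp and Tfap2c, passed the filter through the co-cultured libraries, and their being higher is no separate finding.

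The genes most like Krt8 over the 10 libraries, by Pearson's r of log2(CPM + 1) among 9333 genes with a mean of at least 10 CPM, were Wfdc2 (r = 0.998), Ano1 (r = 0.997) and Serinc2 (r = 0.995). For Krt14 they were Macc1 (r = 0.997), Serpinb5 (r = 0.994) and Tspan9 (r = 0.994). These correlations describe the contrast between tumor cells and NFs that the libraries share. Wfdc2 had 693 to 823 CPM in tumor cells, 14.1 to 46.4 CPM in co-cultured NFs and 0 counts in NFs alone, whereas Tspan9 had 73.0 and 75.8 CPM in NFs alone.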

How the data were processed

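Stranded polyA libraries of 10 samples were sequenced as paired-end reads of 54 bases. Raw read counts per gene were deposited by the authors as a single table without normalization, and the submitters' processing notes name HISAT2 2.2.1 and GRCm38. Neither the program that counted reads, nor whether it used strand, nor the release of the annotation is given in the sources used here. Of the genes, 99.4% had an ID in GENCODE M21, and 99.4% of these had the same coordinates. The only row lacking an ID summed to 0 counts and was dropped. A further floxed allele of the tumor genotype is not reported here.

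CPM were computed by library total, and levels between genes were compared per kb of GENCODE M21 exon. Differential expression was tested over all genes by the quasi-likelihood F test of edgeR 4.0.16 (R 4.3.3) after filterByExpr and TMM scaling, with p-values adjusted after Benjamini-Hochberg and called under 0.05. The tumor model had terms for line and culture, the NF model for subset and culture, and subsets within co-culture were contrasted among 4 groups of the 6 NF libraries. SE is that of the log2 fold change, derived as its absolute value over the square root of the F statistic. Fits were tested on simulated data. NF percentages carry intervals from scipy 1.17.1. Over genes, the differences between gels 4 and 5 in CD26- and in CD26+ NFs had a correlation of 0.225. These gels also differ in tumor line, so gel and line cannot be told apart in that value. The labels place both subsets in the gel. Alternatives were RLE scaling, no filter, DESeq2 1.42.0, an added absolute log2 fold change above 2, dropped terms, the gel as a block, and libraries left out. Alternatives that leave out both NF libraries of a gel were chosen after seeing the data.

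The members and gene lists (luminal, basal, partner, regulator, filament and marker genes) were chosen with earlier results of these data known. All members are named, other keratins from 1 CPM, and of each list the 3 largest absolute log2 fold changes past the threshold. The promoter letters, the fourth regulator, the lists' single values without a call, Krt8-ps, Krt6b, Itga6, Tfap2c, Esrp2, Cldn7, Areg, Foxa1, Gata3 and Cited1 were added after values were seen.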

Additional observations from a re-analysis of the deposited data

Results flagged for a closer look

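In 3 keratins the change from culture alone to co-culture had opposite signs in the tumor lines, on 1 library per line and culture, so that the difference was not tested. On the log2 scale, Krt19 changed by 0.57 in 13-MCB-17 and by −0.39 in 10-SJK-221, a difference of −0.96 (10-SJK-221 minus 13-MCB-17). Krt7 changed by 0.10 and −0.27, a difference of −0.37. Krt80 changed by −0.55 and 0.13, a difference of 0.68. Krt42, at 4.24 to 5.16 CPM, changed by −0.28 in 13-MCB-17 and by 0.00 in 10-SJK-221, which is no change in the latter, a difference of 0.28.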

How the results depend on the processing

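The calls of member keratins depended on the fit in the tumor comparisons and between NF subsets, and the causes were not tested. For co-culture against alone in tumor cells, 2942 genes and 3 keratins were called; with an added absolute log2 fold change above 2 there were 418 genes and 1 keratin (Krt5), by DESeq2 1568 genes, and without the line as a term edgeR called 0 genes and 0 keratins (2207 genes and 2 keratins at an unadjusted p under 0.05). Between the lines, 1910 genes and 3 keratins were called; the added fold change left 278 genes and 0 keratins (5 at an unadjusted p under 0.05), no filter gave 2917 genes and 5 keratins, DESeq2 945 genes and 1 keratin, and without culture as a term edgeR called 0 genes and 0 keratins (1292 and 2 at an unadjusted p under 0.05). For NFs in co-culture against alone, 7325 genes were called, and 2047 with the added fold change. Between co-cultured NF subsets, 975 genes and 1 keratin were called by edgeR; the added fold change left 223 genes and 0 keratins, no filter gave 603 genes and 0 keratins (4 at an unadjusted p under 0.05), and DESeq2 0 keratins (3 at an unadjusted p under 0.05). With the gel as a replicate block, 2407 genes and 4 keratins were called, and no other comparison had a block to add. Leaving out a library gave 0 to 1091 genes and 0 to 1 keratins there, with 0 genes without the CD26+ library of gel 4 (3284 at an unadjusted p under 0.05), 2 without that of gel 5, and 451 and 244 without the CD26- libraries of gels 4 and 5. Tumor libraries left out leave no residual degrees of freedom, so no count was made. Percentages of the tumor level moved by less than their SD over the 4 libraries under every alternative run, with means of 2.17% to 3.96% for Krt7, 2.67% to 3.62% for Krt8, 2.54% to 3.75% for Krt18 and 11.3% to 14.2% for Krt19.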

Other observations

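Other intermediate filament genes were listed beside the keratins. Of 8 tested in tumor cells, 2 rose in co-culture, 0 fell and 6 did not pass, where 10.8% of all genes tested were higher. Vimentin (Vim), the main filament of mesenchymal cells, went from 1195 CPM (13-MCB-17) and 1297 CPM (10-SJK-221) in tumor cells alone to 2065 and 2594 CPM in co-culture (log2 fold change 0.87, SE 0.140, adjusted p = 0.00341). Nestin (Nes), a filament of progenitor and reactive cells, had 298 and 243 CPM alone and 448 and 333 CPM in co-culture (0.49, SE 0.109, adjusted p = 0.0134). In NFs, Nes had 5.90 and 5.05 CPM alone and 335 to 569 CPM in co-culture (6.37, SE 0.221, adjusted p = 9.22e-08), while Vim had 1670 to 2406 CPM throughout. Peripherin (Prph) went from 0.0621 and 0.421 CPM in NFs without tumor cells to between 2.42 and 9.96 CPM, and passed the filter on low counts through the co-cultured libraries, and Synm fell by 2.30 (SE 0.543, adjusted p = 0.00651). Nes in CD26- NFs exceeded the tumor cells of its gel, with 490.3 against 448 CPM in gel 4 and 569 against 333 CPM in gel 5, and CD26+ NFs had 335 CPM in gel 4, below the tumor cells, and 378 CPM in gel 5, above them.

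Markers of other cell types were set beside these values. Against NFs alone, co-cultured NFs had 6 of 7 tested luminal mammary markers higher and 1 lower, 4 of 7 myoepithelial markers lower and 0 higher, 2 of 3 immune markers higher and 1 lower, and 2 of 4 endothelial markers higher and 1 lower, where 25.9% of all genes tested were higher and 22.9% lower. With so few genes per list, a departure from these shares was not tested, and nothing particular to the lists is read from the counts. Summed immune markers were at 101 to 301 CPM in tumor cells alone and 48.0 to 92.3 CPM in co-cultured tumor cells. Most of the sum in tumor cells was Cd68, at 93.1 to 299 CPM alone and 34.8 to 80.5 CPM in co-culture. Csf1r had 1.79 to 12.9 CPM in tumor cells. The rest of the immune list was at most 0.598 CPM in any tumor library, with Ptprc at most 0.127 CPM. In NFs the immune sum was 11.5 to 14.1 CPM without tumor cells, but 31.6 to 63.6 CPM after co-culture. The endothelial sum was at most 24.4 CPM in any library.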
